A study of Mus musculus with 12 samples.

Results

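The levels of 9 transcripts that mark T cells and natural killer (NK) cells were followed in plasma cells sorted from mouse bone marrow. The members were taken by symbol from the probe annotation: Cd3e, Cd3g, Cd3d, Cd4, Cd8a, Cd2, Cd5, Thy1 and Nkg7. Each of these 9 genes, of 19938 genes with a probe set that names 1 gene, had a single probe set, and all 9 passed the filter on low values. The sorted cells were Zbtb32-/- on 6 arrays and wild type (Zbtb32 +/+) on the other 6. In both groups, splenocytes of CD45.2 donors immune to NP-CGG, a hapten on a carrier protein, had been given to CD45.1 recipients that were then challenged with NP-CGG. The marrow was taken 7 days later, and the sort kept hapten-binding cells of donor origin that carried CD138 and lacked B220, Ly6g, CD11b and CD45.1. No T or NK cell marker is named in that sort, the transferred cells are described only as splenocytes, and no age of the mice is stated in the labels. The series text calls the arrays biological replicates, its title speaks of memory B cells, and the label of every sample gives bone marrow plasma cells.

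The T cell receptor has no signalling tail of its own and works together with the CD3 chains, which carry the tyrosine motifs that pass the signal on. Cd3e, Cd3g and Cd3d encode 3 of these chains. The coreceptors CD4 and CD8 bind MHC molecules on the partner cell, CD2 is an adhesion molecule, CD5 dampens antigen receptor signals, Thy1 is a surface glycoprotein of mouse T cells, and Nkg7 is a protein of cytotoxic granules. Several of these genes are not restricted to T and NK cells in the mouse: Cd5 and Cd2 are also transcribed in B lineage cells, Cd4 and Cd8a in subsets of dendritic cells, and Thy1 in some progenitors and stromal cells. Zbtb32, a zinc finger protein of the BTB family, is also known from T cells as repressor of GATA.

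Cd3g and Cd3d lie beside each other and are read in opposite directions, with start sites 1355 bases apart in the promoter table used here. Their promoter windows are shown because the pair was high together on 1 array and parted on another. The window of Cd3e is shown as the third chain of the complex, and that of Nkg7 because it had the widest range of the 9 members. Each window holds 250 bases before and 50 bases after a start site from RefSeq (GRCm38.p6), 5′ to 3′ on the strand of the gene. Windows were found for 6 of the 9 members. Capitals mark GATAA, the core read by GATA factors, CANNTG, the E-box read by E proteins, and TGTGGT, a core read by Runx factors, each searched on both strands. The 4 windows are chr9:44980382-44980681 (minus strand), chr9:44981536-44981835 (plus strand), chr9:45009562-45009861 (minus strand) and chr7:43436888-43437187 (plus strand), in the order of the lines.
Cd3g: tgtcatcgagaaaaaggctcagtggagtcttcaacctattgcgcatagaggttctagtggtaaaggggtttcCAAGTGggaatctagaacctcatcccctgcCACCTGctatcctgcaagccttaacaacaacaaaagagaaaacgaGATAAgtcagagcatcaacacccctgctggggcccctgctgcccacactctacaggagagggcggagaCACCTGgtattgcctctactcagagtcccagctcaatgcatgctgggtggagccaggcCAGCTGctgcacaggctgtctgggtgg
Cd3d: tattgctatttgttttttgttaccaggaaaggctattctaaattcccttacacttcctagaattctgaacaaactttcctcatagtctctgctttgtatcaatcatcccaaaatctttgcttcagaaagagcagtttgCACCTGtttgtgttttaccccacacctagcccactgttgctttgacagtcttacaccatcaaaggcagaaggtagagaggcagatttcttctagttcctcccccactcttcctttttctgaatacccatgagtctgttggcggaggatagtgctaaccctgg
Cd3e: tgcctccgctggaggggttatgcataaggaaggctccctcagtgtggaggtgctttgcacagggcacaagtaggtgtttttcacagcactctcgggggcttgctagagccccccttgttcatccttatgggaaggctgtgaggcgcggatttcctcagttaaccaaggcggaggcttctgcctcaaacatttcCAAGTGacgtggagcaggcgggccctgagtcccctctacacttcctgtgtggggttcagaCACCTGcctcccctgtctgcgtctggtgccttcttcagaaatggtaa
Nkg7: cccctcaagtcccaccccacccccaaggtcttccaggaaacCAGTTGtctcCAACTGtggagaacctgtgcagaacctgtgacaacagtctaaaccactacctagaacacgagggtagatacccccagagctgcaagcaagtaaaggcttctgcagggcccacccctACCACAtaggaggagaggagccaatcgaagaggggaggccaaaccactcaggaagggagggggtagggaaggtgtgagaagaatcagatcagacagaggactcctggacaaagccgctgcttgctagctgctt
The Cd3g window held 1 GATAA and 4 CANNTG matches, the Cd3d window 1 CANNTG match, the Cd3e window 2 CANNTG matches and the Nkg7 window 2 CANNTG matches and 1 TGTGGT match. Of all 32851 windows in the table, 25.4% held GATAA, 72.3% CANNTG and 16.8% TGTGGT. None of these motifs overlapped another in the lines shown. The matches are letters in a window and were not measured as binding.

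The arrays gave log2 RMA values, with a median per array between 6.28 and 6.43. The labelled cell type had its defining transcripts on every array: Jchain averaged 13.65 and Xbp1 13.02 over the 12 arrays, and the mean of 11 plasma cell markers ran from 10.28 to 11.05 in Zbtb32-/- and from 10.25 to 11.11 in wild-type arrays. Transcripts that mark neutrophils had high values too, and whether such cells were among the sorted cells was not tested. The mean of 12 neutrophil markers ran from 9.10 to 12.29 in Zbtb32-/- and from 7.89 to 11.11 in wild-type arrays, with S100a9 at a mean of 12.55 and Ngp at 12.25. Zbtb32 itself had a value of 6.47 at the lowest, 6.53 at the median and 6.73 at the highest in Zbtb32-/- arrays, against 6.39, 6.68 and 6.88 in wild-type arrays. The labels do not say which exons were removed, so these values do not check the genotype. In sorted bulk cells, fewer cells of a type and less RNA per cell cannot be told apart.

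The mean over the 9 members was highest on wild-type replicate 6. Wild-type replicate 6 had the highest value of the 12 arrays for 5 of the 9 members (Cd3g, Cd3d, Cd4, Cd8a and Thy1), while 8.92% of the 14993 genes tested were highest on that array. Zbtb32-/- replicate 6 was highest for 1 member, Nkg7, and for 10.5% of the genes tested. Zbtb32-/- replicate 4 was highest for 0 members and 8.44% of the genes tested, and came next to wild-type replicate 6 for Cd3g and Thy1. Wild-type replicate 4 was highest for 2 members, Cd3e and Cd2, and for 10.4% of the genes tested. Wild-type replicate 1 was highest for 1 member, Cd5, and for 6.68% of the genes tested. The mean over the 9 members was 7.27 on wild-type replicate 6 and ran from 5.99 to 6.66 on the other 11 arrays. A range above 2 log2 units over the 12 arrays was found for 4 of the 9 members (Cd3g, Cd3d, Cd2 and Nkg7), and 5.53% of the genes tested had such a range. The highest array stood over 1 log2 unit above the next for 3 members (Cd3g, Cd3d and Nkg7), against 1.16% of the genes tested. Cd3g and Cd3d passed the filter through their wild-type side, as set out below. Their place in these counts and in the mean is therefore no support for a difference of wild-type replicate 6.

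**Figure D1:**
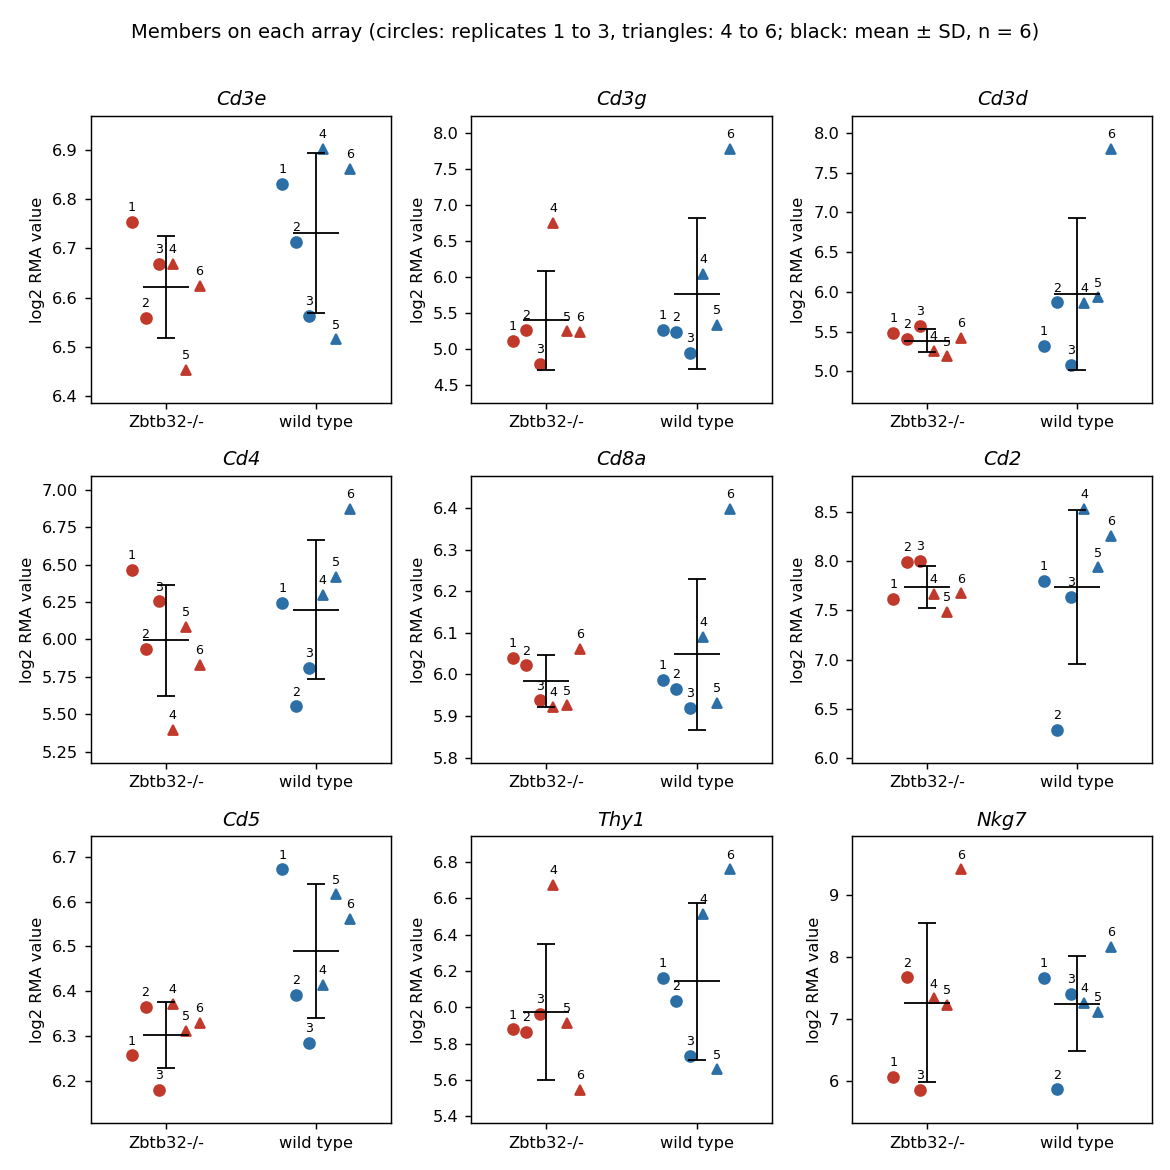
Log2 RMA value of each member (vertical axis, 1 panel per gene, scales differ) on 6 Zbtb32-/- arrays (red, left) and 6 wild-type arrays (blue, right), with replicate numbers, circles for replicates 1 to 3, triangles for 4 to 6, and the mean ± SD in black. Wild-type replicate 6 lies at 7.78 for Cd3g and 7.80 for Cd3d, Zbtb32-/- replicate 4 at 6.76 for Cd3g, and Zbtb32-/- replicate 6 at 9.41 for Nkg7.

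None of the 9 members differed between the genotypes after adjustment over all genes tested. Of 14993 genes, 0 passed an adjusted p of 0.05 (limma, smallest adjusted p = 0.933), a share of 0%. Before adjustment, 642 genes (4.28%) had a p under 0.05, and 1 of them was a member, Cd5. Of all genes tested, 1.45% passed that limit with a lower value in Zbtb32-/- arrays, as Cd5 did. The 6 Zbtb32-/- and 6 wild-type arrays overlapped for all 9 members, and 0.153% of the genes tested had no overlap. The log2 difference, taken as Zbtb32-/- minus wild type, was negative for 8 of the 9 members, with a median of -0.17, while 47.1% of the genes tested had a negative difference and their median was 0.01. Cd2, at -0.002, counted as negative. Cd3g and Cd3d passed the filter through their wild-type side, as set out below, so their signs are no support for a lower level. Without wild-type replicate 6 the differences were negative for 5 of the 9 members, with a median of -0.05, and for 48.1% of the genes tested.

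Of the CD3 chains, Cd3g and Cd3d varied between arrays far more than Cd3e. Cd3g had a value of 4.79 at the lowest, 5.24 at the median and 6.76 at the highest in Zbtb32-/- arrays, against 4.95, 5.30 and 7.78 in wild-type arrays. Of the Zbtb32-/- arrays only replicate 4 exceeded 5.27, while wild-type replicates 6 and 4 lay at 7.78 and 6.04 and the groups overlapped. The mean over 12 arrays, 5.59, was just above the filter of 5.49 log2 units. The difference was -0.37 (95% interval -1.31 to 0.57, limma adjusted p = 0.944). It was -0.64 when Zbtb32-/- replicate 4 was left out and 0.04 when wild-type replicate 6 was left out.

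Cd3d was high on 1 array. It had 5.19, 5.41 and 5.57 as the lowest, median and highest values in Zbtb32-/- arrays, against 5.08, 5.87 and 7.80 in wild-type arrays. Wild-type replicate 6 stood at 7.80, wild-type replicates 2, 4 and 5 lay between 5.87 and 5.93, wild-type replicate 1 fell among the Zbtb32-/- arrays and wild-type replicate 3, at 5.08, lay below all of them. The difference was -0.59 (95% interval -1.32 to 0.14, limma adjusted p = 0.933), the most negative of the 9. Its mean of 5.39 in Zbtb32-/- arrays lay below the filter and its mean of 5.98 in wild-type arrays above it, as did those of Cd3g (5.40 and 5.77). Both genes thus passed the filter through their wild-type side. For Cd3g the wild-type median, 5.30, lay below the filter too, and replicate 6, at 7.78, raised the wild-type mean. The p-values of both genes are therefore not read for or against a difference. Without wild-type replicate 6 the difference of Cd3d was -0.23. On Zbtb32-/- replicate 4, where Cd3g was 6.76, Cd3d was 5.26 and thus lay below the Zbtb32-/- median.

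Cd3e, the chain on which surface assembly of the complex depends, did not follow this pattern. Its value was 6.45 at the lowest, 6.65 at the median and 6.75 at the highest in Zbtb32-/- arrays, against 6.51, 6.77 and 6.90 in wild-type arrays. The whole range over 12 arrays was 0.45 log2 units, and wild-type replicate 6, at 6.86, lay just under wild-type replicate 4, at 6.90. The difference was -0.11 (95% interval -0.31 to 0.09, limma adjusted p = 0.933). The 3 chains thus stood unequally far from their own means on wild-type replicate 6: Cd3g at 7.78 against a 12-array mean of 5.59, Cd3d at 7.80 against 5.68 and Cd3e at 6.86 against 6.68.

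The coreceptor genes were highest on wild-type replicate 6 as well. Cd4 had 5.40, 6.01 and 6.46 as lowest, median and highest in Zbtb32-/- arrays, against 5.55, 6.27 and 6.87 in wild-type arrays. The highest Zbtb32-/- array was replicate 1 and the lowest replicate 4, so that the array with the second highest Cd3g was the lowest of all 12 for Cd4. The difference was -0.21 (95% interval -0.66 to 0.25, limma adjusted p = 0.936), and it was -0.07 without wild-type replicate 6.

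Cd8a moved within 0.48 log2 units. It had 5.92, 5.98 and 6.06 as lowest, median and highest in Zbtb32-/- arrays, against 5.92, 5.98 and 6.40 in wild-type arrays. Apart from wild-type replicate 6, at 6.40, the arrays of both genotypes lay between 5.92 and 6.09. The difference was -0.06 (95% interval -0.25 to 0.12, limma adjusted p = 0.948), and 0.01 without wild-type replicate 6. Cd8b1, which encodes the partner chain and is in the list of receptor signalling genes, was 7.56 on the same array and at most 6.17 on the others.

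Among the surface molecules of adhesion and regulation, Cd2 was set apart by a low array. Its value was 7.48 at the lowest, 7.67 at the median and 8.002 at the highest in Zbtb32-/- arrays, against 6.29, 7.87 and 8.53 in wild-type arrays. Wild-type replicate 2 lay at 6.29, more than 1 log2 unit below every other array, and wild-type replicates 4 and 6 were the highest of the 12. The difference was close to 0 (95% interval -0.64 to 0.63, limma adjusted p = 0.999), and it was -0.29 without wild-type replicate 2.

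Cd5 was the member with the smallest unadjusted p. Its value was 6.18 at the lowest, 6.32 at the median and 6.37 at the highest in Zbtb32-/- arrays, against 6.29, 6.49 and 6.67 in wild-type arrays. The 6 Zbtb32-/- arrays all lay below wild-type replicates 1, 2, 4, 5 and 6, and wild-type replicate 3 fell among them. The difference was -0.19 (95% interval -0.37 to -0.01, SE 0.08), with an unadjusted limma p of 0.0441 and an adjusted p of 0.933. Leaving out each array in turn gave differences between -0.23 and -0.15, and in 7 of the 12 fits the unadjusted limma p was above 0.05, up to 0.1045 without wild-type replicate 1. It was 0.0667 after renewed quantile normalization and 0.0665 after median centring. The difference was -0.19 within replicates 4 to 6 and -0.18 within replicates 1 to 3.

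Thy1 had 5.55, 5.90 and 6.68 as lowest, median and highest in Zbtb32-/- arrays, against 5.66, 6.10 and 6.76 in wild-type arrays. The high arrays were wild-type replicates 6 and 4 and Zbtb32-/- replicate 4, the arrays that were also highest for Cd3g. The difference was -0.17 (95% interval -0.61 to 0.27, limma adjusted p = 0.944). It was -0.31 when Zbtb32-/- replicate 4 was left out and -0.05 when wild-type replicate 6 was left out.

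Nkg7, the granule gene, had the widest range of the 9, 3.56 log2 units. Its value was 5.85 at the lowest, 7.28 at the median and 9.41 at the highest in Zbtb32-/- arrays, against 5.86, 7.33 and 8.16 in wild-type arrays. Zbtb32-/- replicate 6 was highest and wild-type replicate 6 next, while Zbtb32-/- replicates 3 and 1 and wild-type replicate 2 lay near 6. The difference was 0.02 (95% interval -1.11 to 1.15, limma adjusted p = 0.998), an interval that spans a 2-fold change in either direction. It was -0.41 without Zbtb32-/- replicate 6 and -0.26 without wild-type replicate 2.

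**Figure D2:**
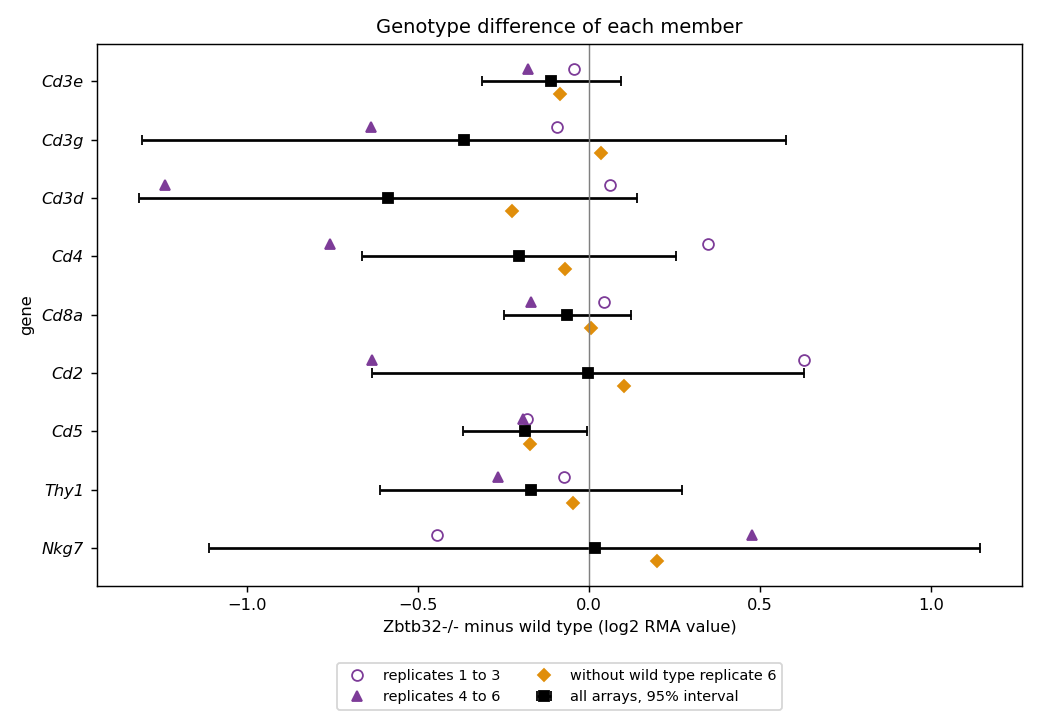
Genotype difference of each member on the log2 scale (horizontal axis, Zbtb32-/- minus wild type), with squares and bars for all 12 arrays and the 95% interval, purple marks for each replicate set (triangles 4 to 6, circles 1 to 3) and diamonds for the difference without wild-type replicate 6. The intervals of 8 members include 0, that of Cd5 ends at -0.01, and the diamonds of Cd3g and Cd3d lie at 0.04 and -0.23.

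Replicates 4 to 6 and replicates 1 to 3 were compared because these sets differ across many genes. The labels do not name them as batches, and each holds 3 arrays of each genotype. The sets were chosen from these data, so their levels are a description. Cd3g had a median of 5.69 over replicates 4 to 6 and of 5.18 over replicates 1 to 3, with ranges of 5.24 to 7.78 over replicates 4 to 6 and 4.79 to 5.27 over replicates 1 to 3. Nkg7 had a median of 7.30 over replicates 4 to 6 and of 6.73 over replicates 1 to 3, with ranges of 7.12 to 9.41 over replicates 4 to 6 and 5.85 to 7.67 over replicates 1 to 3. The sets overlapped for all 9 members, while 1.03% of the genes tested were higher and 2.86% lower in replicates 4 to 6 with no overlap.

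Within replicates 4 to 6, the 3 Zbtb32-/- arrays lay below the 3 wild-type arrays for 4 of the 9 members, Cd3d, Cd4, Cd2 and Cd5, and 5.76% of the genes tested did so. Cd3d passed the filter through its wild-type side, so its place in this count is no support for a lower level. In replicates 1 to 3 this held for 0 of the 9, against 3.46% of the genes tested. The 3 Zbtb32-/- arrays lay above the 3 wild-type arrays for 0 of the 9 in either set, against 7.18% of the genes tested in replicates 4 to 6 and 3.04% in replicates 1 to 3. Cd3d differed by -1.24 in replicates 4 to 6 and by 0.06 in replicates 1 to 3. Cd4 differed by -0.76 in replicates 4 to 6 and by 0.35 in replicates 1 to 3. Cd2 differed by -0.63 in replicates 4 to 6 and by 0.63 in replicates 1 to 3. The other members, again with replicates 4 to 6 before replicates 1 to 3, gave -0.64 and -0.09 for Cd3g, -0.18 and -0.04 for Cd3e, -0.17 and 0.04 for Cd8a, -0.27 and -0.07 for Thy1 and 0.48 and -0.44 for Nkg7. In replicates 4 to 6, Cd4 and Cd2 had an unadjusted limma p under 0.05, against 7.05% of the genes tested. No p is read for Cd3d, with the limit given above. After adjustment 0 members passed (limma, smallest adjusted p = 0.6995). The 1 gene that passed there (0.00667% of those tested) was Rny1, a Y RNA, which is named after its value was seen. In replicates 1 to 3, 0 members had an unadjusted p under 0.05, against 2.27% of the genes tested, and 8 of 9 members were negative in replicates 4 to 6 (45.9% of the genes tested) against 5 of 9 in replicates 1 to 3 (49.1%). Cd3g and Cd3d are among the 8 of 9, and through the filter their signs are no support for a lower level.

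The difference between the sets was tested as a genotype by set interaction in limma. It passed adjustment for 0 of 14993 genes, a share of 0% (smallest adjusted p = 0.105), and 579 genes (3.86%) had an unadjusted p under 0.05, among them Cd4 and Cd2. The interaction, replicates 4 to 6 minus replicates 1 to 3, was -1.11 (SE 0.32) for Cd4, -1.26 (SE 0.47) for Cd2 and -1.30 (SE 0.56) for Cd3d. The unadjusted limma p was 0.00484 for Cd4 and 0.0187 for Cd2, with an adjusted p of 0.998 for both. No p is read for Cd3d, which passed the filter through the wild-type arrays. Without wild-type replicate 6, the interaction of Cd3d was -0.67 and that of Cd4 -0.94. Without wild-type replicate 2, that of Cd2 was -0.79.

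Other genes of T and NK cells were read from lists of receptor signalling, transcription factors and cytotoxic effectors. In the list of receptor signalling and costimulation, 18 of 20 entries matched a probe set and 13 passed the filter. Of these, 12 had a negative and 1 a positive difference, with a median of -0.16, and 0 passed the adjusted threshold, while 47.1% of all genes tested were negative. The median was -0.35 in replicates 4 to 6 and -0.13 in replicates 1 to 3. Lists of other cells leaned too: 9 of 11 B cell markers were negative (median -0.11), while 11 of 12 neutrophil markers (median 0.38) and 7 of 7 erythroid markers (median 0.28) were positive. Cd247, the zeta chain of the receptor complex, differed by -0.29 (SE 0.14, adjusted p = 0.933 in limma) and Icos, a costimulatory receptor, by -0.22. Lcp2, an adaptor also used in myeloid cells, differed by -0.36 and Cd28, which plasma cells also carry, by -0.19. The mean over the 18 genes ran from 6.10 to 6.24 in Zbtb32-/- arrays and from 6.14 to 6.68 in wild-type arrays, with wild-type replicate 6 highest.

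Of 14 entries for T cell transcription factors, 12 matched and 11 passed the filter, 8 with a negative and 3 with a positive difference, a median of -0.10 and 0 past the adjusted threshold. The median was -0.18 in replicates 4 to 6 and 0.02 in replicates 1 to 3. Satb1, a chromatin organiser, had 6.83, 7.67 and 9.25 as lowest, median and highest in Zbtb32-/- arrays, against 7.66, 8.62 and 9.40 in wild-type arrays. It was highest on wild-type replicate 6 and Zbtb32-/- replicate 4, and its difference was -0.60 (SE 0.39, adjusted p = 0.933 in limma). Id2, an inhibitor of E proteins, differed by -0.45 and was lowest on Zbtb32-/- replicate 4, at 5.28. Runx3, a factor of CD8 T cells and NK cells, differed by 0.23 (SE 0.11, adjusted p = 0.933 in limma), and Zbtb7b, the factor of the CD4 lineage, by 0.08.

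In the NK and cytotoxic effector list, all 20 entries matched, 1 through a synonym, and 9 passed the filter, so 11 lay at or below it over the 12 arrays. Of the 9, 6 had a negative and 3 a positive difference, with a median of -0.16, and 0 passed the adjusted threshold. The median was -0.10 in replicates 4 to 6 and -0.16 in replicates 1 to 3. Ctsw, a cathepsin of cytotoxic lymphocytes, was 7.71 on wild-type replicate 6 and at most 6.57 on the other arrays, with a difference of -0.44 (SE 0.22, adjusted p = 0.933 in limma). Ccl5, a chemokine of activated T and NK cells, differed by -0.26, Cd7 by -0.38 and the perforin gene Prf1 by 0.02. Ncr1, which defines NK cells in the mouse, did not pass the filter and ranged from 4.65 to 5.02 in Zbtb32-/- and from 4.66 to 5.70 in wild-type arrays. On Zbtb32-/- replicate 6, where Nkg7 was 9.41, Ncr1 was 4.85, Prf1 7.06 and Ctsw 6.23. The list of T cell receptor constant segments had 7 entries, none of which is named by a single-gene probe set here.

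Wild-type replicate 6 was highest of the 12 arrays for 6 of the 18 signalling genes, 7 of the 12 transcription factors and 5 of the 20 effector genes, against 8.92% of the genes tested. This was not particular to T and NK genes. The same array was highest for 4 of 11 B cell markers, 2 of 8 basophil and mast cell markers and 1 of 10 dendritic cell markers. It was highest for 0 of the plasma cell, neutrophil, monocyte and macrophage, and erythroid markers. For the effector genes wild-type replicate 1 was highest more often, for 6 of the 20 (Ncr1, Klrg1, Gzma, Gzmb, Prf1 and Xcl1), against 6.68% of the genes tested. Of these, Ncr1, Klrg1 and Gzmb did not pass the filter. The next 3 genes were chosen after their values were seen. Lat, the adaptor of T cell receptor signalling, was 8.49 on wild-type replicate 6 and at most 7.20 elsewhere. Gzmk, a granzyme that did not pass the filter, was 6.90 there and at most 5.41 elsewhere, and Gata3, a factor of T cell development, 6.58 and at most 5.82. Other genes of these lists were not high on that array: Zbtb7b, at 7.45, had its lowest value of the 12 there, Runx3, at 7.43, its second lowest, and Prf1, at 6.88, and Gzmb, at 4.89, lay mid-range. On Zbtb32-/- replicate 4, Zap70, the kinase recruited to the CD3 chains, had its highest value, 7.00, against at most 6.49 on the other arrays, also chosen after the values were seen. Lat was 6.91 and Cd8b1 5.57 on that array. Cd3g, Thy1 and Satb1 were high on both arrays.

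**Figure D3:**
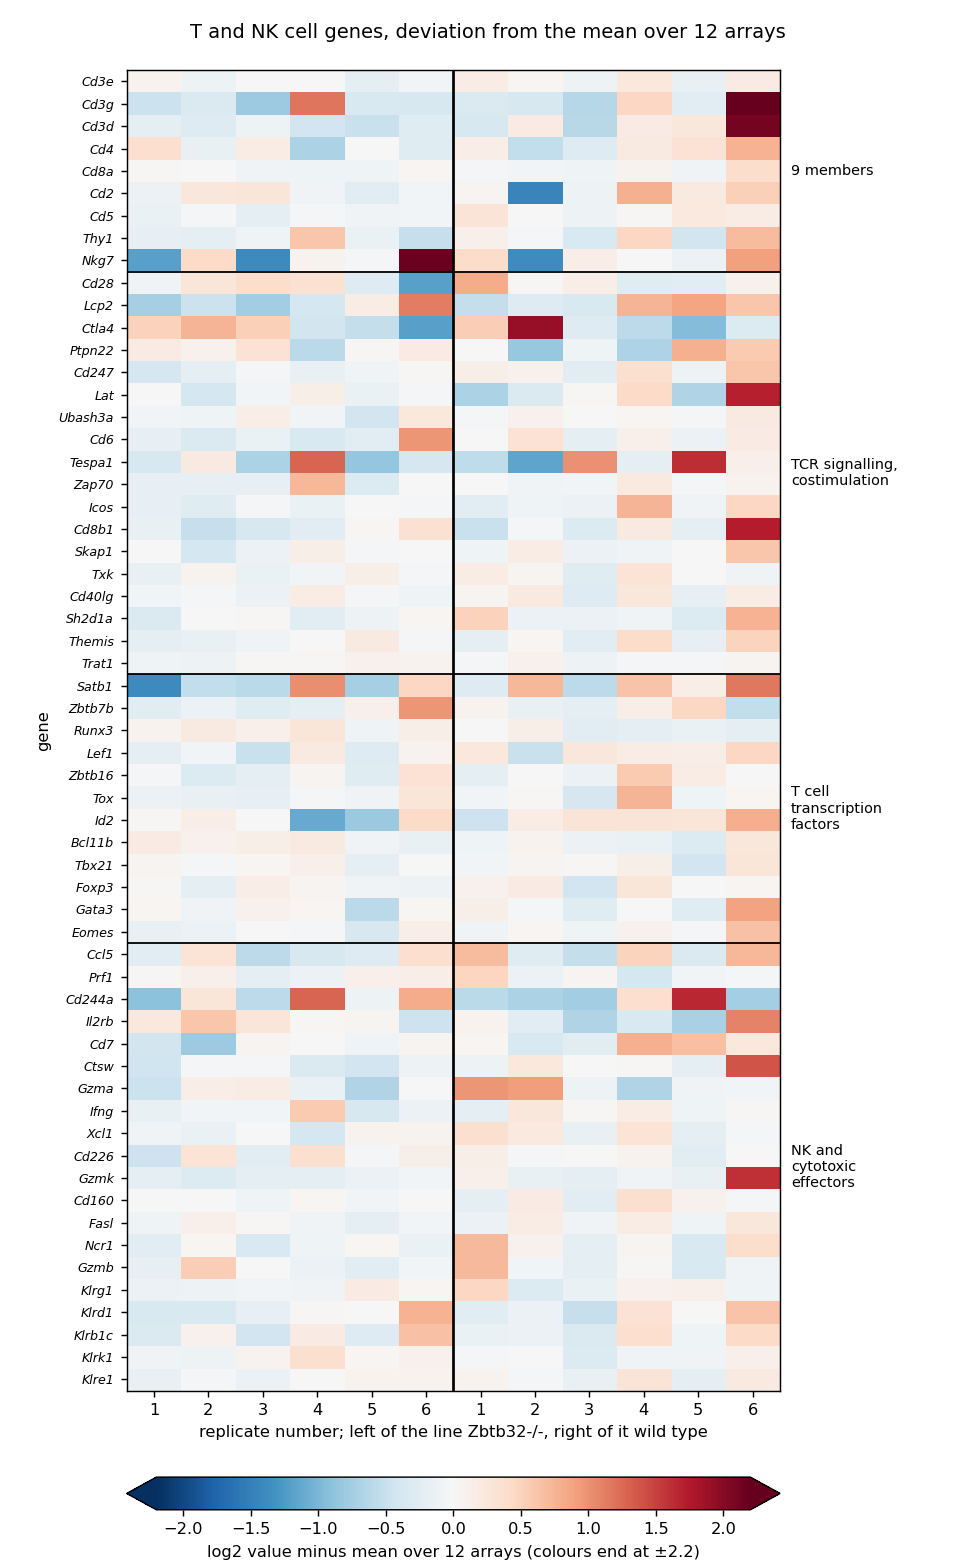
Log2 value minus its mean over the 12 arrays for the 9 members and 50 further T and NK cell genes (rows, grouped by list) on 6 Zbtb32-/- arrays (left of the line) and 6 wild-type arrays (right), in columns by replicate number. Nkg7 is red on Zbtb32-/- replicate 6, and Cd3g, Cd3d, Lat, Cd8b1, Ctsw and Gzmk are red on wild-type replicate 6.

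Markers of other cells on these arrays were as follows. On wild-type replicate 6 the mean of 11 B cell markers was 9.32, the highest of the 12 arrays, beside 9.31 on wild-type replicate 5, and the neutrophil mean was 10.43. B cell markers ran from 8.461 to 8.997 in Zbtb32-/- and from 8.23 to 9.32 in wild-type arrays. Monocyte and macrophage markers (9 of 10 matched) ran from 7.05 to 8.50 in Zbtb32-/- and from 6.98 to 8.62 in wild-type arrays, and dendritic cell markers (10 of 10) from 6.97 to 7.24 in Zbtb32-/- and from 6.96 to 7.53 in wild-type arrays. Basophil and mast cell markers (8 of 8) ran from 4.81 to 4.94 in Zbtb32-/- and from 4.84 to 5.89 in wild-type arrays, with wild-type replicate 4 highest, and erythroid markers (7 of 10) from 6.94 to 7.69 in Zbtb32-/- and from 6.15 to 7.99 in wild-type arrays. RMA values have no true 0, so no marker can be called absent from them. The part of these cells in the members' values was not tested.

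The arrays highest and next to lowest for Nkg7 were the arrays highest and lowest for neutrophil markers, which are those of a cell type that the sort set out to remove by Ly6g and CD11b. On Zbtb32-/- replicate 6, all 12 neutrophil markers had their highest value, their mean was 12.29 and Nkg7 was 9.41. On wild-type replicate 2 the neutrophil mean was lowest, 7.89, and Nkg7 was 5.86. Across the 12 arrays Pearson's r between Nkg7 and the neutrophil mean was 0.82 (permutation p = 0.0022, two-sided) and Spearman's rho was 0.54 (permutation p = 0.0747). Adjusted over the 63 relations of 9 members with 7 marker lists, these p-values were 0.138 and 0.584, and 0 of the 63 passed by either measure. Other relations had unadjusted p-values under 0.05 as well. Cd2 and the B cell mean had r = 0.701 (permutation p = 0.0046, 0.144 adjusted) and rho = 0.650 (permutation p = 0.0262, 0.473 adjusted), with r = 0.478 without wild-type replicates 2 and 6, 0.752 within replicates 4 to 6 and 0.620 within replicates 1 to 3. Cd5 and the erythroid mean had r = -0.598 (permutation p = 0.0398, 0.530 adjusted) and rho = -0.762 (permutation p = 0.00525, 0.281 adjusted), with r = -0.824 without wild-type replicates 2 and 3, -0.836 within replicates 4 to 6 and -0.508 within replicates 1 to 3. Nkg7 also had r = 0.601 with the monocyte mean and 0.572 with the B cell mean, and Cd3g had rho = 0.727 with the basophil mean (permutation p = 0.0089, 0.281 adjusted) at r = 0.353. Cd3g had rho = 0.636 with the B cell mean (permutation p = 0.0300, 0.473 adjusted) at r = 0.534. Cd5 had rho = 0.594 with the basophil mean (permutation p = 0.0451, 0.540 adjusted) at r = 0.171. For Nkg7 and neutrophil markers, r was 0.57 without the arrays farthest from the median, Zbtb32-/- replicate 6 and wild-type replicate 2. It was 0.70 within replicates 4 to 6 and 0.77 within replicates 1 to 3. For Cd3d and the neutrophil mean r was -0.01 (permutation p = 0.969), and between Nkg7 and Cd3d r was 0.13.

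**Figure D4:**
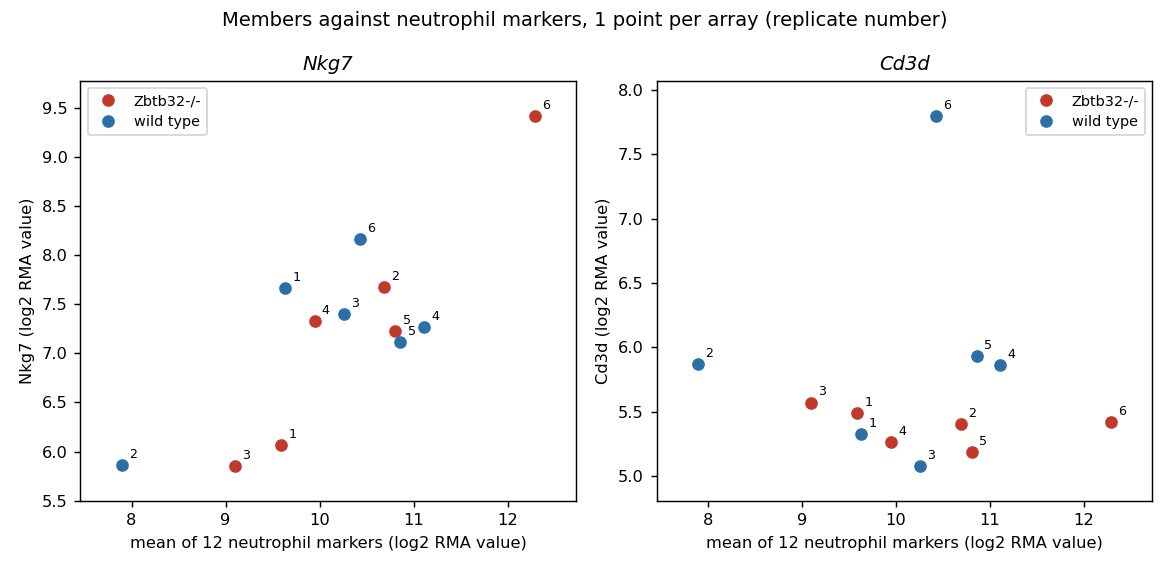
Nkg7 (left) and Cd3d (right) in log2 RMA values against the mean of 12 neutrophil markers in log2 RMA values, 1 point per array with its replicate number, red for Zbtb32-/- and blue for wild type. Nkg7 is highest, 9.41, where the neutrophil mean is highest, 12.29, while Cd3d is highest, 7.80, at a neutrophil mean of 10.43.

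Among themselves the members varied together to different degrees, given as a description over 12 arrays that share 1 normalization. Over the 36 pairs Pearson's r ran from -0.03 to 0.88, with a median of 0.37. The pair with the highest r was Cd3d and Cd8a (0.88), followed by Cd3g and Thy1 (0.85), and Cd3g and Cd3d had 0.75. Without wild-type replicate 6 the median r was 0.18, and these 3 pairs had 0.30, 0.81 and 0.04. By Pearson's r the likeness of Cd3d to Cd3g and to Cd8a thus fell without that array, while that of Cd3g and Thy1 held. Zbtb32-/- replicate 4 was high for both Cd3g and Thy1. By rank the picture differed. Spearman's rho with and without wild-type replicate 6 was 0.59 and 0.46 for Cd3d and Cd8a, and 0.54 and 0.40 for Cd3g and Thy1. For Cd3g and Cd3d it was 0.27 and 0.05.

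The genes whose values over the 12 arrays were most like those of the members were named by Pearson's r, with no test, since they are the highest of 14993 genes. For the mean of the 3 CD3 chains these were Gng7 (r = 0.931), Batf3 (0.926), Srgap1 (0.925), Dppa4 (0.920) and Tubb1 (0.919). All of these were highest on wild-type replicate 6. Without that array r was 0.544 for Gng7, 0.512 for Batf3, 0.761 for Srgap1, 0.416 for Dppa4 and 0.389 for Tubb1. With wild-type replicate 4 left out as well, these were 0.178, 0.617, 0.696, 0.278 and 0.677. For Cd8a the nearest genes were Nefh (0.976) and Gng7 (0.935), for Cd3d Slc34a1 (0.950) and Dppa4 (0.942), and for Cd3g Dapl1 (0.892) and Rbp4 (0.877). Without wild-type replicate 6 these were 0.875 for Nefh and 0.606 for Gng7 with Cd8a, 0.762 for Slc34a1 and 0.501 for Dppa4 with Cd3d, and 0.667 for Dapl1 and 0.631 for Rbp4 with Cd3g. With Zbtb32-/- replicate 4 left out as well, Dapl1 had 0.263 and Rbp4 0.138. With wild-type replicate 4 left out as well, Nefh had 0.805 and Gng7 0.323 with Cd8a. With wild-type replicate 5 left out as well, Slc34a1 had 0.675 and Dppa4 0.599 with Cd3d. For Cd4 they were Drd3 (0.855) and Ift57 (0.843), for Cd3e Klhl3 (0.934) and Col4a3 (0.925), and for Cd5 Defb25 (0.766) and Usp40 (0.759). For Cd2 they were Cenps (0.914) and Otud6b (0.907), for Thy1 Nxph1 (0.906) and Cps1 (0.892), and for Nkg7 Cldn15 (0.915) and Ssh2 (0.895), both highest on Zbtb32-/- replicate 6. For the genes named with these last members, Cd4, Cd3e, Cd5, Cd2, Thy1 and Nkg7, the arrays farthest from the member's median were also left out. Their r then ran from 0.363 (Otud6b with Cd2) to 0.943 (Cps1 with Thy1).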

How the data were processed

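RNA of sorted plasma cells was labelled with biotin and each of the 12 samples was measured on 1 Affymetrix array. The authors deposited log2 values per probe set, and the submitters' processing notes name RMA and Affymetrix Expression Console without a version. RMA brings the arrays to a common distribution and compresses low values. The number of arrays limits the precision. Of 35556 probe sets, the platform annotation gives 1 gene for 21789, several for 1621 and none for 12146.

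Each gene was read from the single-gene probe set of highest mean (19938 genes), and those at or below the 25th percentile, 5.49, were left out, which kept 14993. Genotype, and genotype by replicate set, were tested in limma 3.58.1, run under R 4.3.3, by lmFit and a moderated eBayes step that let the variance follow the mean. The p-values of these fits set a difference against the spread between these arrays. They were adjusted by Benjamini-Hochberg over all genes tested, with a threshold of 0.05. The permutation p-values of the marker correlations were adjusted in the same way over the 63 relations. Correlations with marker lists used 100000 resamples (Python 3.11.15, numpy 2.4.6), and plots matplotlib 3.10.9. Other normalizations, filters, probe set rules, weights, blocks and subsets of arrays were tried.

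The genes named are the 9 members and, of each other list, the 2 of highest mean. Of T and NK lists the 2 of smallest p were added. By likeness, 5 genes are named for the CD3 mean and 2 for each member, leaving out predicted genes, olfactory and vomeronasal receptors, variable segments and small RNAs. Of the marker lists only those that bear on a result are named. The members and lists were chosen with earlier results of these data known.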

Additional observations from a re-analysis of the deposited data

Results flagged for a closer look

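In each genotype of 6 arrays, the highest and lowest values of each member were compared with the nearest other array, and a gap that took more of the group's range than Dixon's 95% critical value was taken as far from the others. Of the 18 member and genotype combinations, 4 met this. The nominal rate of the rule is about 1 in 20, but the share over all genes tested was not computed. The count is therefore not read as a result about the members. Cd3g was 6.76 on Zbtb32-/- replicate 4, with 5.27 as the next highest Zbtb32-/- value. Thy1 was 6.68 on the same array, with 5.96 next. Cd3d was 7.80 on wild-type replicate 6, with 5.93 as the next highest wild-type value, and Cd8a was 6.40 there, with 6.09 next. The members share arrays, so these 4 are not independent of each other.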

How the results depend on the processing

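Over the 9 members, 210 differences were computed under other settings. Of these 24 had the opposite sign to the value reported, and 0 passed the adjusted threshold (limma, smallest adjusted p = 0.522). Median centring gave 0.022 for Cd2, and array weights gave -0.47 for Nkg7 and 1 gene past the adjusted interaction threshold. With replicates 4 to 6 only, 1 gene passed the adjusted genotype threshold and 1057 had an unadjusted p under 0.05. With replicates 1 to 3 only, 341 genes did, and the difference was 0.062 for Cd3d, 0.63 for Cd2, 0.35 for Cd4, 0.043 for Cd8a and -0.44 for Nkg7. With both wild-type replicates 2 and 6 left out, a setting chosen after seeing the data, it was 0.0018 for Cd3g, 0.0029 for Cd8a and -0.10 for Nkg7. Leaving out each array in turn gave -0.64 to 0.035 for Cd3g, -0.29 to 0.16 for Cd2, -0.089 to 0.0064 for Cd8a and -0.41 to 0.30 for Nkg7, and the signs of Cd3e, Cd3d, Cd5, Cd4 and Thy1 held throughout. The unadjusted count then ran from 458 (without wild-type replicate 6) to 1416 (without wild-type replicate 3), and was 968 without Zbtb32-/- replicate 6 and 1005 without wild-type replicate 1. The adjusted interaction count ran from 0 to 1. The causes were not tested. A filter at the median removed Cd3g, Cd3d, Cd5, Cd4, Cd8a and Thy1. The median over all genes was 0.01 as reported and 0.04 after centring. With the replicate number as a replicate block, 0 genes passed (smallest adjusted p = 0.792), 914 had an unadjusted p under 0.05, the p of Cd5 was 0.0669 and no member was called. With the replicate sets as a block, 0 genes passed (limma, smallest adjusted p = 0.760). In that fit 959 genes had an unadjusted p under 0.05, and the limma p of Cd5 was 0.0414. The titles do not say that the numbers pair samples, so the main fit has no pairing. The deviations of same-numbered arrays from their genotype means had r from 0.019 to 0.468, over 0.1 for 4 of 6 numbers. Of the 6 Zbtb32-/- arrays, 2 correlated best with their own number. Whether same-numbered arrays belong together was not tested. The median half-width of the 95% interval over all genes was 0.311 log2 units.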
